A study of Mus musculus with 6 samples.

Results

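The Wnt ligands, their Frizzled receptors and Lrp coreceptors, the secreted Wnt inhibitors and the main intracellular carriers of the signal were followed in whole interscapular brown fat of newborn mice. Members were chosen by symbol, with earlier results of these data known. They were every gene in the deposited table named Wnt, Fzd, Sfrp or Dkk followed by a digit, Lrp5 and Lrp6, and Wif1, Frzb, Axin2, Ctnnb1, Lef1, Tcf7, Tcf7l1 and Tcf7l2. This gave 44 of the 19241 genes: 16 ligands, 12 receptors and coreceptors, 10 secreted inhibitors and 6 intracellular members. The study compared 3 WT libraries, from newborn mice with a floxed Fstl1 gene, with 3 KO libraries, from newborn mice labelled Myf5-Fstl1 KO, which lack Fstl1 in cells of the Myf5 lineage. Fstl1 encodes a secreted glycoprotein, and the Myf5 lineage forms skeletal muscle and much of this depot. The labels do not say whether a library came from 1 animal or a pool, and give neither the sex nor the Cre status of the WT mice. The p-values therefore measure only the spread between these libraries, which may be technical. The whole depot was taken, so the libraries also hold RNA of cells outside the Myf5 lineage.

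Wnt proteins are secreted lipid-modified ligands that bind Frizzled receptors. With Lrp5 or Lrp6 as coreceptor they stabilise beta-catenin, which enters the nucleus and acts on target genes through TCF and LEF factors; without a Wnt signal the destruction complex, built on Axin proteins, marks beta-catenin for degradation. Other Wnt signals run through receptors such as Ror2 without beta-catenin. Active Wnt and beta-catenin signalling is known to hold back adipocyte differentiation, and Sfrp, Wif1, Frzb and the best-known Dkk proteins can block the pathway outside the cell. All Dkk genes were placed among the secreted inhibitors by symbol, whatever the activity of each protein.

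Values were FPKM, fragments scaled to transcript length and library size, which allow levels of different genes to be set side by side; where 3 values are given for a group they are replicates 1, 2 and 3 in that order. Depth, estimated from how low FPKM values step, was 13870000 to 15010000 reads per library, so that 3 reads on a transcript of 1 kb came to about 0.2 FPKM. Fstl1 itself was at 55.52, 130.04 and 54.37 FPKM in WT, against 7.93, 13.08 and 8.77 FPKM for KO, in the direction of the labels. Xist was at 44.82 FPKM or more in every WT library and at 0.92 FPKM or less in every KO library, while Ddx3y, on the Y chromosome, was at 59.54 FPKM or more in every KO library and at 0.23 FPKM or less in every WT library. Sex as read from these genes thus went with genotype in all 6 libraries, and in every comparison below the effect of genotype and that of sex cannot be told apart. All 44 members lie on autosomes. The brown fat markers Ucp1 and Cidea, and the adipocyte genes Adipoq and Fabp4, were abundant in all 6 libraries, as the tissue label requires. Their lowest value was 889.10 FPKM, of Adipoq in WT replicate 1. The other genes of the brown adipocyte list used below were less abundant, with Lep at most 2.22 FPKM in any library. In bulk tissue, fewer cells of a type and less RNA per cell cannot be told apart.

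Axin2 and the inhibitor Sfrp4 were lower in KO, to 34.0% and 21.8% of the WT mean, and no tested member was called higher in limma. Of the 44 members, 24 had a mean of at least 0.5 FPKM and were tested, where 69.3% of all genes in the table were. In the limma fit over 13331 genes, 2 of the 24 passed an adjusted p of 0.05, both lower. Over all tested genes 2.21% passed in either direction and 1.01% were lower, so the count is small, and 2 genes are too few to set the family apart from that background. An unadjusted p under 0.05 was found for 8 of the 24 members, against 19.2% of all tested genes. Fitted changes were below 0 for 13 and above 0 for 11, against 48.4% below 0 over all tested genes. The median log2 fold change was −0.12 over the tested members and 0.011 over all tested genes. By role the median was −0.28 for the 5 tested intracellular members, −0.17 for 10 receptors, 0.025 for 5 secreted inhibitors and 0.13 for 4 ligands. WT and KO values did not overlap for 8 of the 24 members, 6 lower and 2 higher in KO, where 24.9% of tested genes did not overlap. Over all 44 members it was 12, against 19.9% of all rows, and each of the 12 had an exact permutation p of 0.1, the smallest that 3 against 3 allows.

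**Figure D1:**
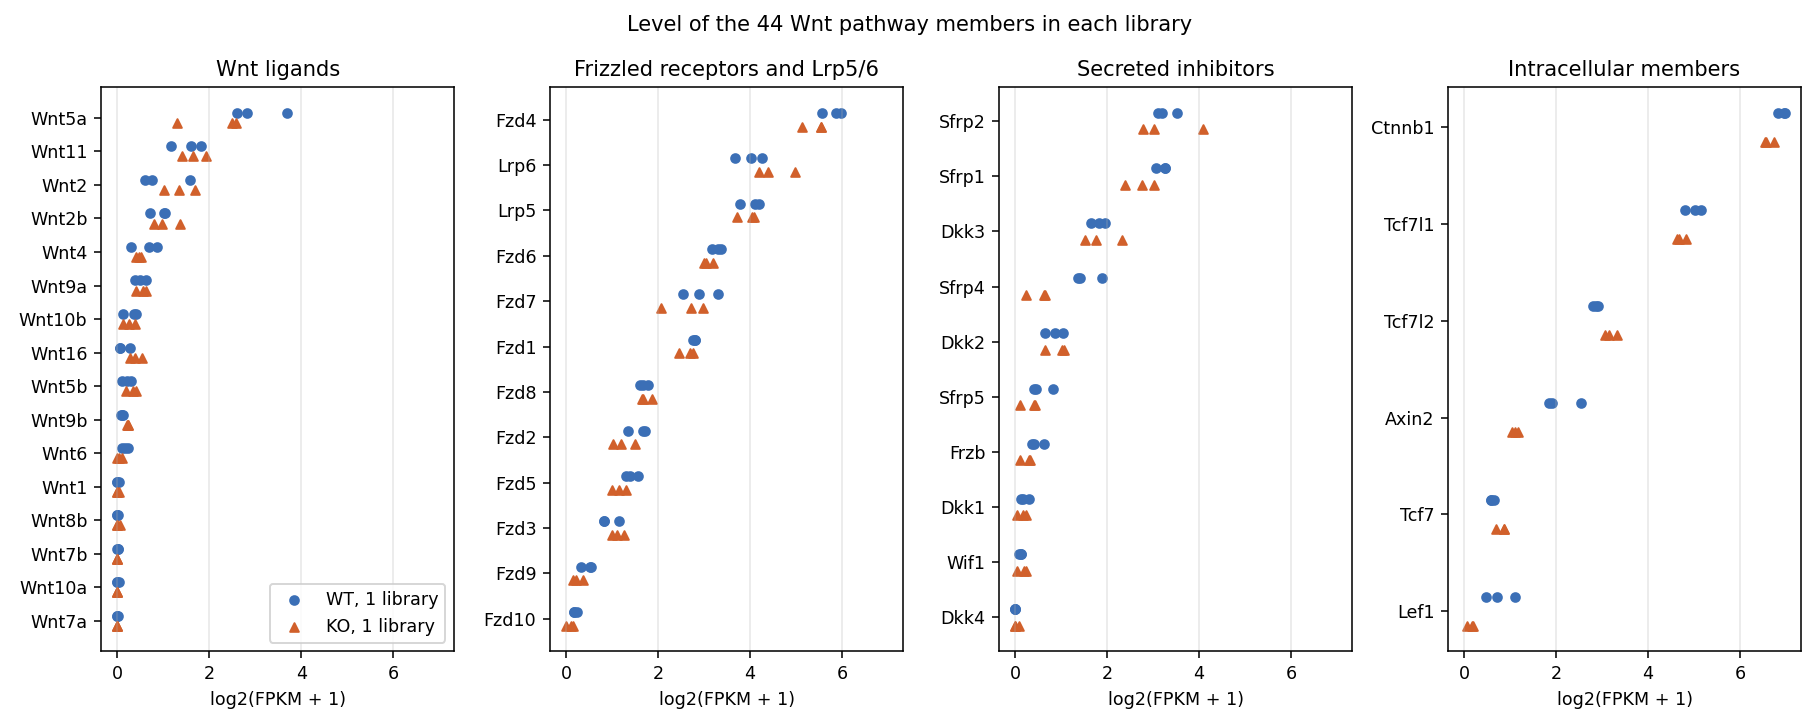
Level of each of the 44 members, as log2(FPKM + 1) on the horizontal axis, in the 3 WT libraries (circles) and the 3 KO libraries (triangles), by role and in order of mean level. Ctnnb1 and Fzd4 stand highest, most ligands lie close to 0, and the WT and KO points are apart for Axin2, Sfrp4 and Lef1.

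Axin2 (Entrez gene 12006) encodes a scaffold of the destruction complex and is a widely used readout of beta-catenin signalling, since the pathway induces its own brake. The gene lies on mouse chromosome 11 from 108917828 to 108950783 (mm10), and no other RefSeq gene overlaps it. Axin2 was at 2.62, 4.81 and 2.74 FPKM in WT, against 1.26, 1.15 and 1.05 FPKM for KO. Every KO library was below every WT library, the KO libraries were close together, and WT replicate 2 stood above the other WT libraries. WT averaged 3.39 ± 1.23 FPKM and KO 1.15 ± 0.105 FPKM (SD, n = 3 each), which is 34.0% of the WT level. The log2 fold change was −0.99 (SE 0.20, 95% confidence interval −1.45 to −0.54, limma adjusted p 0.0427). The exact two-sided permutation test gave p 0.1. The direction held in all 14 alternatives with a value, and the adjusted p passed in 6 of them, with a range of 0.0307 to 0.134. Without WT replicate 2, the highest library, the change was −0.77 on the log2 scale, with a limma adjusted p of 0.134. The call was also lost without any single one of WT replicate 3 and KO replicates 1, 2 and 3, at adjusted p of 0.0969 to 0.123, and it passed without WT replicate 1 at 0.046.

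Lef1 (Entrez gene 16842; chromosome 3, 131110297 to 131224357) encodes a high-mobility-group factor that carries beta-catenin to DNA and is itself induced by the pathway in many tissues. It was at 0.40, 1.16 and 0.65 FPKM in WT, against 0.04, 0.12 and 0.15 FPKM for KO. All KO libraries were below all WT libraries, and WT replicate 2 was again the highest. KO held 14.0% of the WT mean, with means of 0.737 ± 0.387 and 0.103 ± 0.0569 FPKM (SD, n = 3 each). Estimated from a transcript length of 3357 nt, these values rest on 19, 58 and 32 reads in WT and on 2, 6 and 7 reads in KO, so the KO level in particular has a wide counting error. Its mean over the 6 libraries was below 0.5 FPKM and it was not tested. In the fit without a filter on low values it did not pass (log2 fold change −0.63, SE 0.15, limma adjusted p 0.14, unadjusted p 0.00436), and that fit called 0.182% of all genes and 0 members, with 13 of the 44 at an unadjusted p under 0.05. The exact permutation test gave p 0.1.

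Over the 6 libraries the member most like Axin2 in pattern was Lef1, with a Pearson correlation of log2(FPKM + 1) of 0.966, followed by Sfrp4 (0.946) and Fzd5 (0.886). For Sfrp4 the order was Lef1 (0.954), Axin2 (0.946) and Frzb (0.927). These correlations describe 6 points that share the group difference and the high values of WT replicate 2.

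The start regions of Axin2, Lef1 and Ror2, a receptor described below, are shown as examples of genes lower in every KO library than in any WT library. Other members with this pattern, such as Ctnnb1, Fzd4 and Frzb, had windows that are not shown, and Sfrp4 had no window. The printed start regions come from RefSeq (GRCm38.p6, the same coordinates as mm10), which held windows for 31 of the 44 members. Each runs 5′ to 3′ on the gene's strand from 250 bases before to 50 bases after an annotated start. Capitals mark a match on either strand to the core letters bound by TCF and LEF factors, searched as CTTTGAT (held by 3.73% of all windows and 2 of the 40 windows of members), as CTTTGTT (5.85% of all and 3 of the members' windows), as CTTTGAA (5.14% and 1) and as CTTTGTA (3.63% and 1). These differ in their last letters and cannot match at the same place on 1 strand.
Axin2, start inside the gene's span, chr11:108920099-108920398, plus strand: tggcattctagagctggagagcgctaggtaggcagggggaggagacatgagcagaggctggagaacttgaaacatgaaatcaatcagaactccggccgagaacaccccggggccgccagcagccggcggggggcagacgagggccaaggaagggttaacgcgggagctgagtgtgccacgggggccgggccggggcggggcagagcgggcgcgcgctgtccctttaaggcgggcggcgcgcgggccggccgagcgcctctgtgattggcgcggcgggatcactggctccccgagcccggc
Ror2, chr13:53286075-53286374, minus strand: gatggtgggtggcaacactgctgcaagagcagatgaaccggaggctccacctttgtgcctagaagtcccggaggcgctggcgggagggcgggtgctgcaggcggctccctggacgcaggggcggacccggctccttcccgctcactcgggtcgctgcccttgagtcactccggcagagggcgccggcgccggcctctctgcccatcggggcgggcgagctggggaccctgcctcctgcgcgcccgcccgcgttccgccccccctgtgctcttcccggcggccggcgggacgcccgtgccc
Lef1, first start, chr3:131110047-131110346, plus strand: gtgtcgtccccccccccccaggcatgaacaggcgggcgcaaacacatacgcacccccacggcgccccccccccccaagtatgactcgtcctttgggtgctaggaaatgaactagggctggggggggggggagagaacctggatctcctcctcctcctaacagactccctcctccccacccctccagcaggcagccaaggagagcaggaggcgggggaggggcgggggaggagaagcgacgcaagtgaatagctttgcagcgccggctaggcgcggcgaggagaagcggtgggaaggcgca
Lef1, internal start, chr3:131156044-131156343, plus strand: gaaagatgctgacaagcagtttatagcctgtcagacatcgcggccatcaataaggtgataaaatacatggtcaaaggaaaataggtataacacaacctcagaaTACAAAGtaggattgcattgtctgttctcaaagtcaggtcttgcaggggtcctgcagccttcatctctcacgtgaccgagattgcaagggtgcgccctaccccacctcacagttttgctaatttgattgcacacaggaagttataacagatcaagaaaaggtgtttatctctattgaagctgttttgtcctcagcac
The table held 1 window for Axin2, whose start lies downstream of the first base of the gene given above, and 4 for Lef1, of which 2 are shown. The windows of Axin2 and Ror2 held none of these letters. Of the 4 Lef1 windows, 3 held none, among them both that are not shown, and the internal one printed here held CTTTGTA on the opposite strand, 147 bases before that start. Of the 40 windows of members, 6 held at least 1 match, and 16.9% of all 32851 windows did. The members' windows had a median GC content of 67.3% and a median of 25.5 CpG dinucleotides, against 52.7% and 7 over all windows. Axin2 (70.0% GC, 31 CpG), Ror2 (74.7%, 32 CpG) and the first Lef1 start (67.3%, 18 CpG) were GC-rich, and the internal Lef1 window was not (43.7%, 5 CpG).

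None of the other tested intracellular members passed. Ctnnb1 encodes beta-catenin, which also serves in cell junctions, and was the most abundant member. It was at 124.92, 122.29 and 111.61 FPKM in WT, against 105.05, 93.13 and 92.71 FPKM for KO. All KO libraries were below all WT libraries, with a log2 fold change of −0.30 (SE 0.13) that did not pass (limma adjusted p 0.255). Tcf7l1, known mostly as a repressor among the TCF factors, was at 26.82, 31.64 and 34.55 FPKM in WT, against 27.29, 23.68 and 24.59 FPKM for KO, and the groups overlapped (log2 fold change −0.28, SE 0.15, limma adjusted p 0.333). Tcf7l2, a TCF factor with a known part in adipocytes and in metabolic disease, was at 6.01, 6.29 and 6.52 FPKM in WT, against 7.89, 8.95 and 7.42 FPKM for KO. KO was above WT in every library, without passing (log2 fold change 0.32, SE 0.14, limma adjusted p 0.259). Tcf7 was also higher in every KO library, at 0.63, 0.82 and 0.82 FPKM against 0.57, 0.50 and 0.49 FPKM in WT, and did not pass (limma adjusted p 0.449); its gene overlaps Skp1, so that reads may have been shared. Tcf7l1 made up 79.3% to 81.9% of the summed FPKM of the 4 TCF and LEF genes in WT and 70.5% to 76.1% in KO. For Tcf7l2 the share was 15.4% to 17.8% in WT and 22.0% to 26.7% in KO. These shares did not overlap between the groups and were not tested.

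Among the secreted inhibitors Sfrp4 fell. Sfrp4 (Entrez gene 20379; chromosome 13, 19623175 to 19632825) encodes a secreted Frizzled-related protein, a decoy that binds Wnt ligands. It was at 1.64, 2.70 and 1.57 FPKM in WT, against 0.17, 0.58 and 0.54 FPKM for KO. The groups did not overlap, with WT replicate 2 highest and KO replicate 1 lowest. Means were 1.97 ± 0.633 and 0.43 ± 0.226 FPKM (SD, n = 3 each), so KO held 21.8% of WT. The log2 fold change on the scale of FPKM + 1 was −1.05 (SE 0.20, 95% confidence interval −1.49 to −0.60, limma adjusted p 0.0391), and the exact permutation p was 0.1. With a pseudocount of 0.1 in place of 1 the log2 fold change was −2.04. An estimated 40 to 69 reads in WT and 4 to 15 in KO lie behind these values, and the KO mean alone would not have met the filter. The direction held in all 14 alternatives and the adjusted p passed in 7, with a range of 0.0235 to 0.138. The call was lost whichever library was left out, at adjusted p of 0.0503 without WT replicate 1, 0.138 without WT replicate 2, 0.101 without WT replicate 3, and 0.0948, 0.0774 and 0.0855 without KO replicates 1, 2 and 3. Of the summed Sfrp and Frzb level, Sfrp4 took 8.43% to 12.0% in WT and 1.63% to 3.85% in KO.

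Sfrp2 and Sfrp1 were the most abundant inhibitors by mean level, and neither passed. Sfrp2 was at 8.15, 10.42 and 7.55 FPKM in WT, against 5.91, 15.85 and 7.08 FPKM for KO, where KO replicate 2 was above and KO replicates 1 and 3 were below all WT libraries. Its log2 fold change was 0.025 with a 95% confidence interval of −0.67 to 0.72 (limma adjusted p 0.978), and without KO replicate 2 it was −0.37. Sfrp1 was at 8.59, 8.58 and 7.31 FPKM in WT, against 4.21, 7.15 and 5.80 FPKM for KO, all below WT, and did not pass (log2 fold change −0.47, SE 0.19, limma adjusted p 0.22). Dkk3 (2.51 FPKM in WT, 2.75 in KO) and Dkk2 (0.82 and 0.903), of the Dickkopf family whose best-known members bind Lrp coreceptors, had intervals of −0.44 to 0.55 and −0.33 to 0.46 on the log2 scale. Sfrp5, Frzb, Dkk1, Wif1 and Dkk4 were too low to test, with their highest libraries at 0.78, 0.54, 0.24, 0.17 and 0.06 FPKM. Frzb, also called secreted Frizzled-related protein 3, was lower in every KO library (0.08, 0.23 and 0.26 FPKM) than in any WT library (0.29, 0.54 and 0.33 FPKM), on an estimated 3 to 25 reads; the library values of Frzb, of Tcf7 above, and of Wnt9b and Wnt10b below, are given after they were seen.

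Among ligands Wnt5a dominated. It encodes a Wnt that signals largely without beta-catenin, through Ror receptors, and is known as an inflammatory factor in adipose tissue. Wnt5a (Entrez gene 22418) was at 11.94, 6.05 and 5.07 FPKM in WT, against 4.64, 4.95 and 1.46 FPKM for KO. WT replicate 1 was high and KO replicate 3 low, while the other 4 libraries lay between 4.64 and 6.05 FPKM, and the groups did not overlap. KO held 47.9% of the WT mean, and the log2 fold change of −0.92 (SE 0.38) did not pass (limma adjusted p 0.235). It was −0.59 without WT replicate 1 and −0.50 without KO replicate 3. Wnt5a took 47.3% to 68.7% of the summed ligand FPKM in WT and 18.8% to 44.9% in KO.

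Wnt11 was the second ligand by level, at 2.52, 1.25 and 2.03 FPKM in WT, against 1.64, 2.14 and 2.83 FPKM for KO. The groups overlapped, and the interval of its log2 fold change ran from −0.34 to 0.61 (limma adjusted p 0.778). Wnt2 (1.07 ± 0.793 FPKM in WT, 1.59 ± 0.601 in KO, SD, n = 3) and Wnt2b (0.903 ± 0.229 and 1.09 ± 0.429 FPKM) also overlapped between groups, with adjusted p of 0.51 and 0.764 in limma. Wnt5a was above Wnt11 in 5 of the 6 libraries, and in KO replicate 3 Wnt11 was the higher. The 12 other ligands were below the filter. Wnt4, Wnt9a, Wnt16, Wnt10b and Wnt5b had their highest library at 0.82, 0.55, 0.46, 0.33 and 0.32 FPKM. Wnt10b, known for holding back adipocyte differentiation, was at 0.28, 0.33 and 0.09 FPKM in WT, against 0.20, 0.30 and 0.09 FPKM for KO, on an estimated 3 to 11 reads per library. Wnt9b was higher in every KO library (0.16, 0.18 and 0.17 FPKM) than in any WT library (0.08, 0.06 and 0.09 FPKM), on an estimated 4 to 12 reads, and was not tested; its gene overlaps Wnt3, so that reads may have been shared. Wnt6 reached 0.17 FPKM, and Wnt1, Wnt7a, Wnt7b, Wnt8b and Wnt10a were at or below 0.04 FPKM in every library, an estimated 2 reads or fewer, where no difference could be detected at this depth.

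Fzd4 was the leading receptor. It encodes a Frizzled known for blood vessel growth, where it also takes the ligand Norrin, and its gene overlaps Tmem135 in the RefSeq annotation, so that reads may have been shared. Fzd4 was at 62.01, 57.64 and 46.33 FPKM in WT, against 45.33, 45.47 and 34.06 FPKM for KO. All KO libraries were below all WT libraries, but the highest KO and the lowest WT library were less than 1 FPKM apart. The log2 fold change was −0.40 (SE 0.17) and did not pass (limma adjusted p 0.248). Fzd4 took 63.2% to 67.7% of the summed Frizzled FPKM in WT and 61.2% to 66.3% in KO. The endothelial marker list, 8 genes, summed to 545 to 732 FPKM in WT and 554 to 631 FPKM in KO and overlapped between the groups. Of these 8 genes, 5 were fitted lower and 3 higher, and 0 were called. Cldn5 was the 1 gene with an unadjusted p under 0.05 (log2 fold change −0.71, limma adjusted p 0.237). The part of endothelial cells in the values of Fzd4 was not tested.

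Lrp6 and Lrp5 encode the coreceptors of the beta-catenin branch. Lrp6 was at 18.17, 15.20 and 11.73 FPKM in WT, against 19.98, 17.36 and 30.33 FPKM for KO, and KO replicate 2 lay below WT replicate 1. Its log2 fold change of 0.54 (SE 0.23) did not pass (limma adjusted p 0.248), and it was 0.31 without KO replicate 3. Lrp5, at 15.4 ± 2.28 FPKM in WT and 14.5 ± 2.04 in KO (SD, n = 3), had an interval of −0.47 to 0.30 on the log2 scale. By mean level the other Frizzled genes followed as Fzd6, Fzd7, Fzd1, Fzd8, Fzd2, Fzd5 and Fzd3, from 8.08 down to 1.05 FPKM over the 6 libraries. Fzd7 and Fzd1, neighbours in that order at 5.93 and 5.59 FPKM, did not differ beyond the spread between libraries. None of these 7 passed, and their log2 fold changes ran from −0.33 (Fzd2) to 0.20 (Fzd3). Fzd9 and Fzd10 were below the filter, with highest libraries at 0.46 and 0.18 FPKM. Fzd10 was lower in every KO library (0, 0.07 and 0.11 FPKM) than in any WT library (0.12, 0.18 and 0.12 FPKM), on an estimated 0 to 9 reads. Its library values are given after they were seen. Summed over the 10 Frizzled genes the level was 73.3 to 91.6 FPKM in WT and 55.6 to 73.7 FPKM in KO, where WT replicate 3 and KO replicate 2 overlapped.

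**Figure D2:**
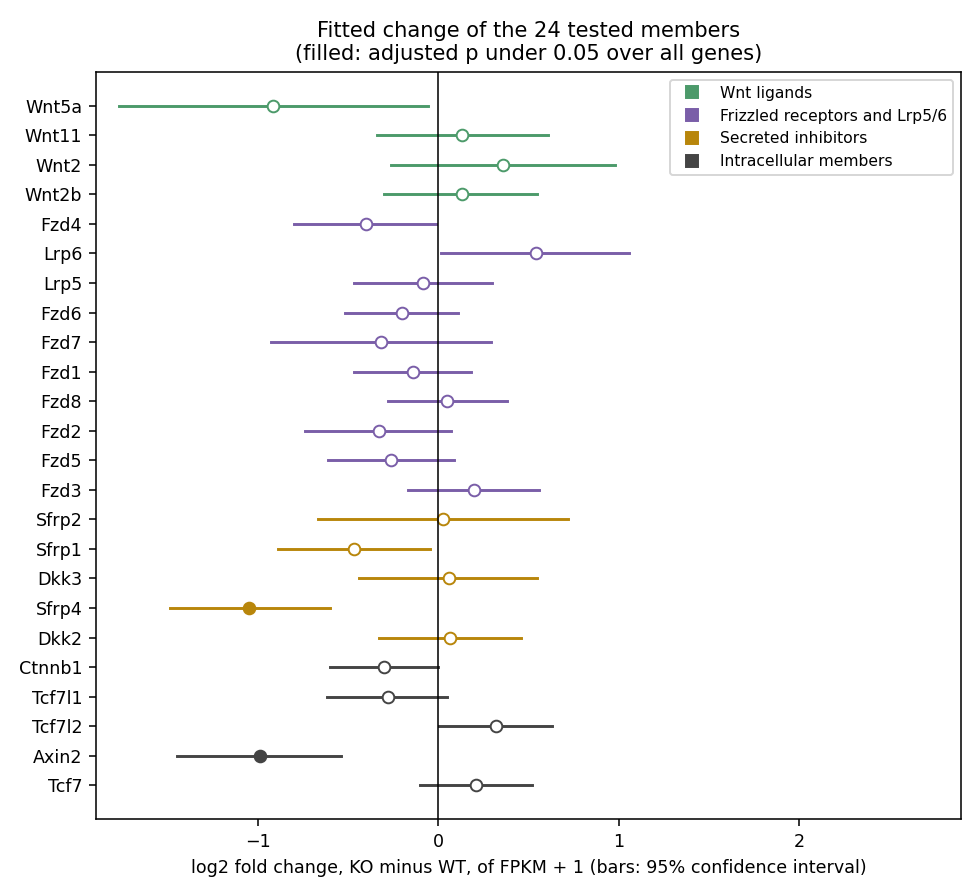
Fitted log2 fold change (KO minus WT, of FPKM + 1) of the 24 tested members with 95% confidence intervals, coloured by role and ordered by mean level within each. Filled points, Sfrp4 and Axin2, passed an adjusted p of 0.05 over all genes, and the widest interval is that of Wnt5a, from −1.77 to −0.057.

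Other genes of the pathway were taken from 8 lists holding 107 genes in the table, 5 of them in more than 1 list. Of these, 91 were tested, 4 passed (3 lower, 1 higher) and 18 had an unadjusted p under 0.05, against the 2.21% and 19.2% given above. Their median log2 fold change was −0.06. The genes that passed were the receptor Ror2, the cyclins Ccnd1 and Ccnd2, and the corepressor Tle3. In the RefSeq annotation another gene overlaps Ror2, Ccnd1 and Ccnd2, as it does 18 of the 44 members, among them Ctnnb1, Tcf7l1, Tcf7l2, Lrp6 and Wnt11, and without a stated use of strand the reads of such pairs cannot be told apart.

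Ror2 (Entrez gene 26564) encodes a receptor tyrosine kinase that binds Wnt5a. It was at 2.25, 3.73 and 2.40 FPKM in WT, against 1.05, 0.72 and 0.80 FPKM for KO. The groups did not overlap and WT replicate 2 was highest, as for Axin2, Lef1 and Sfrp4, and for Fstl1. The log2 fold change was −1.01 (SE 0.18, limma adjusted p 0.0348), with KO at 30.7% of the WT mean. It passed in 7 of 14 alternatives, with a range of 0.0216 to 0.119, and was 0.119 without WT replicate 2, 0.101 without WT replicate 3 and 0.0614, 0.0908 and 0.097 without KO replicates 1, 2 and 3. Its relative Ror1 was at 1.98 ± 0.225 FPKM in WT and 2.79 ± 0.726 FPKM in KO (SD, n = 3; limma log2 fold change 0.33, adjusted p 0.355), and Ryk, another Wnt receptor, at 24.8 ± 0.921 and 23.2 ± 1.21 FPKM. Ror1 and Ryk are named here after their values were seen.

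Canonical target genes, known as such from other tissues, had the lowest median of the 8 lists. Of 13 tested, 9 were lower and 4 higher, 2 passed, both lower, 8 had an unadjusted p under 0.05, and the median log2 fold change was −0.30. Over all tested genes 48.4% were fitted lower, 2.21% passed and 19.2% had an unadjusted p under 0.05. The list was drawn up with earlier results of these data known. Ccnd1 (cyclin D1) was at 27.43, 25.44 and 25.90 FPKM in WT, against 13.05, 14.52 and 9.81 FPKM for KO (log2 fold change −1.03, SE 0.16, limma adjusted p 0.0248). Ccnd2 (cyclin D2) was at 12.34, 14.27 and 9.55 FPKM in WT, against 6.41, 6.18 and 4.51 FPKM for KO (−0.96, SE 0.19, limma adjusted p 0.0423). Neither cyclin overlapped between the groups, and both are also driven by many signals besides Wnt. Ccnd1 passed in 10 of 15 alternatives and Ccnd2 in 7 of 15. The call of Ccnd1 was lost without WT replicate 2 (0.108), WT replicate 3 (0.0998), KO replicate 1 (0.058) or KO replicate 3 (0.0523), and that of Ccnd2 whichever library was left out, with adjusted p of 0.0623 to 0.179. Apcdd1, a membrane inhibitor of Wnt signalling that is also a target and stands in 2 of the lists, was at 5.44, 15.24 and 9.18 FPKM in WT, against 2.93, 3.59 and 2.96 FPKM for KO. Its log2 fold change of −1.30 (SE 0.29) did not pass (limma adjusted p 0.0603), and WT replicate 2 was once more the highest. It passed in 3 of 15 alternatives, 1 of them without WT replicate 1, at 0.0288.

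The other 5 targets with an unadjusted p under 0.05 are named after their values were seen, and they did not share a direction. Myc was at 13.3 ± 1.31 FPKM in WT and 9.32 ± 0.904 FPKM in KO, Tbx3 at 10.8 ± 2.40 and 6.11 ± 1.23 FPKM, and Nkd1, a feedback inhibitor, at 0.687 ± 0.132 and 0.333 ± 0.115 FPKM (SD, n = 3). Cd44, at 10.7 ± 2.53 FPKM in WT and 19.2 ± 4.64 FPKM in KO, and Bmp4, at 0.717 ± 0.29 and 1.36 ± 0.203 FPKM, were higher. The adjusted p of these 5 in limma was 0.0917 to 0.251. Lgr5, Notum and Rnf43, which are narrow targets in other tissues, were below the filter, with means of at most 0.15 FPKM in either group.

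Tle3 was the 1 gene of these lists that rose at the adjusted threshold. It encodes a Groucho-type corepressor that binds TCF factors and is known to promote adipogenesis. Tle3 was at 17.47, 11.68 and 14.43 FPKM in WT, against 29.75, 31.65 and 28.83 FPKM for KO. Every KO library was above every WT library, and KO stood at 207% of the WT mean (log2 fold change 1.02, SE 0.17, limma adjusted p 0.0267). It passed in 9 of 15 alternatives, with a range of 0.0159 to 0.108. The call was lost without WT replicate 2 (0.108), WT replicate 3 (0.0998) or KO replicates 1, 2 or 3 (0.0674, 0.0806 and 0.0605). Of the 15 nuclear cofactors it was the 1 that passed; 8 were lower and 7 higher, and Cby1, an inhibitor of beta-catenin, was lower without passing (log2 fold change −0.49, limma adjusted p 0.168).

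**Figure D3:**
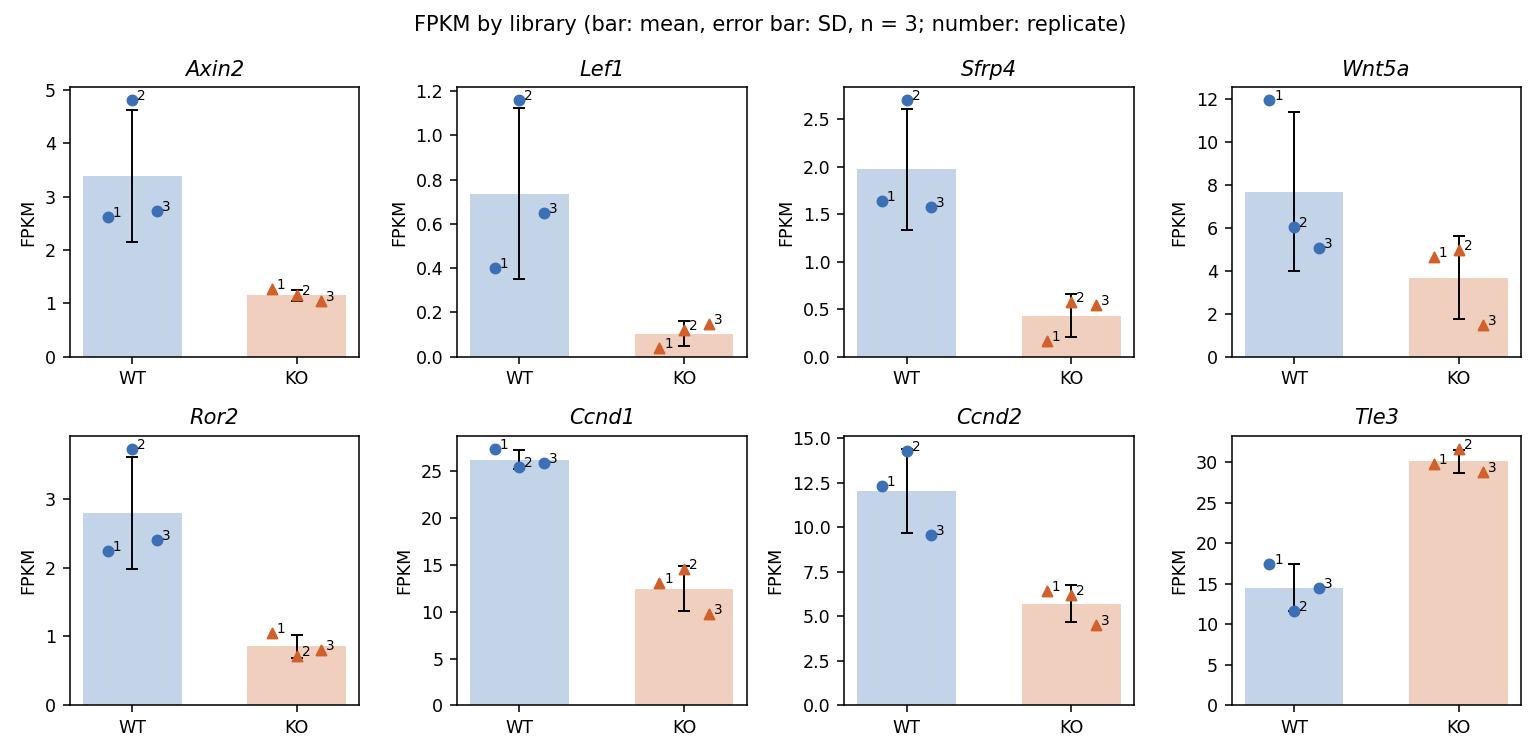
FPKM of 8 genes in each library, with bars at the group mean, error bars of 1 SD (n = 3) and the replicate number beside each point; every axis starts at 0. KO points lie below all WT points for Axin2, Lef1, Sfrp4, Wnt5a, Ror2, Ccnd1 and Ccnd2 and above them for Tle3, and WT replicate 2 is the highest WT library for Axin2, Lef1, Sfrp4, Ror2 and Ccnd2.

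In the other lists 0 genes passed at the adjusted threshold, in the same limma fit, and the genes with an unadjusted p under 0.05 numbered 2 of 4 tested for agonists and receptor turnover, 2 of 6 for other inhibitors, 1 of 19 for cytoplasmic transduction, 1 of 22 for the planar polarity and calcium branch and 1 of 5 for secretion and release. Of all tested genes, 19.2% had an unadjusted p under 0.05. Lgr6 (13.9 FPKM in WT, 9.57 in KO) and Lgr4 (6.95 and 9.85), both receptors for R-spondins, which strengthen Wnt signalling, lay in opposite directions without overlap of the groups (limma adjusted p 0.192 and 0.235). Dact3, an intracellular Wnt antagonist, was at 2.12, 1.45 and 1.69 FPKM in WT, against 0.71, 0.75 and 0.65 FPKM for KO (log2 fold change −0.69, limma adjusted p 0.0551), and passed in 1 of 14 alternatives. Gsk3a, a kinase of the destruction complex (98.0 and 72.6 FPKM, log2 fold change −0.44, limma adjusted p 0.177), the calcium-branch factor Nfatc4 (4.95 and 3.38 FPKM, −0.44, 0.137) and the X-linked glypican Gpc4 (9.29 and 6.47 FPKM, −0.46, 0.174) were lower in every KO library, and the coreceptor Lrp4 (0.853 and 1.36 FPKM, 0.35, 0.251) higher. Wls, which carries Wnt proteins to the cell surface, was at 21.83, 20.84 and 17.22 FPKM in WT, against 18.63, 25.46 and 14.28 FPKM for KO, overlapped between the groups (limma adjusted p 0.904), and is named after its values were seen.

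**Figure D4:**
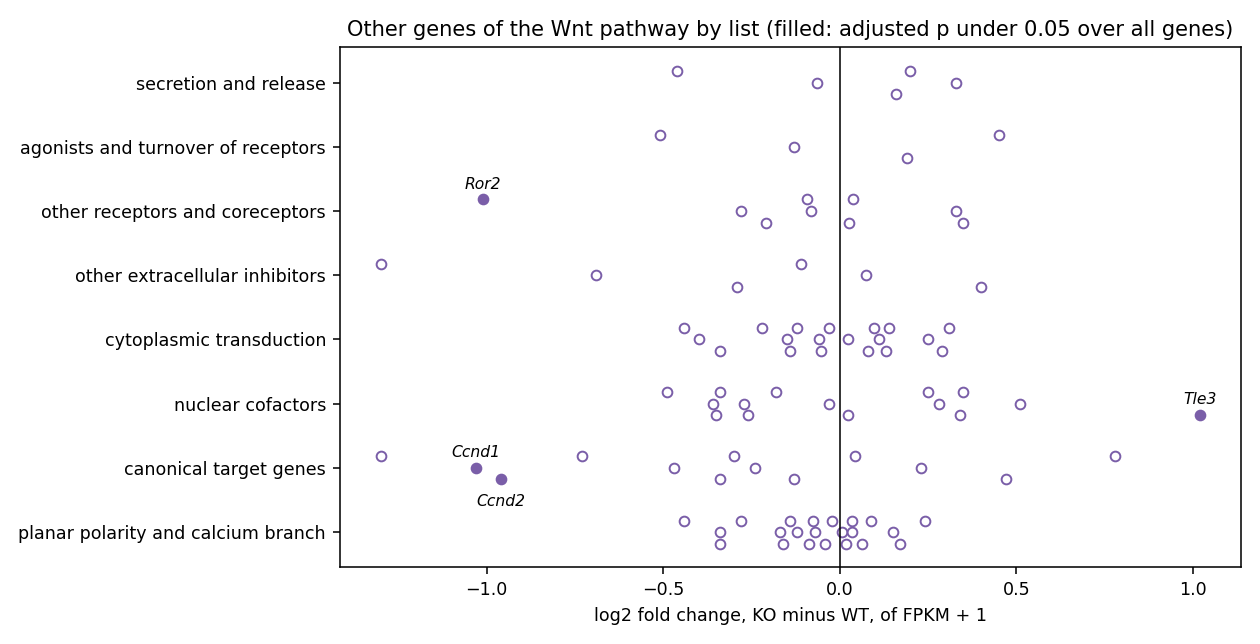
Fitted log2 fold change (KO minus WT, of FPKM + 1) of the tested genes in the 8 lists of other pathway genes, 1 point per gene and list, so that a gene in 2 lists appears in both. Filled points passed an adjusted p of 0.05 over all genes: Ror2, Ccnd1 and Ccnd2 below 0 and Tle3 above it.

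Markers of the cell types in the depot moved with the groups to different degrees. Over all tested genes 48.4% were fitted lower, 2.21% were called and 19.2% had an unadjusted p under 0.05. The 11 brown adipocyte genes summed to 21299 to 26698 FPKM in WT and 20332 to 22265 FPKM in KO. Most of these sums was Fabp4, at 14058.7 to 17389 FPKM in WT and 13999.9 to 15846.4 FPKM in KO. Of the 11 genes, 7 were fitted lower and 3 were called, all lower: Elovl3, Plin1 and Lep. The 4 fitted higher were Ppargc1a (log2 fold change 0.52, limma adjusted p 0.251), Adipoq, Pparg and Cidea. Lep also stands in the white adipocyte list, where it was the 1 gene called of 4 tested. Ucp1, the uncoupling protein of brown fat heat production, was at 5582 ± 1055 FPKM in WT and 2729 ± 960 FPKM in KO (SD, n = 3), below WT in every KO library, and did not pass (limma adjusted p 0.0804). The 6 smooth muscle and pericyte genes summed to 98.8 to 133 FPKM in WT and 77.2 to 94.6 FPKM in KO, with all 6 fitted lower and 1 of 6, Cspg4, called lower. The 7 myogenic precursor genes summed to 5.72 to 7.69 FPKM in WT and 0.87 to 4.77 FPKM in KO, lowest in KO replicate 1. All 3 tested genes were fitted lower, 0 were called and 1 had an unadjusted p under 0.05 in limma. Of the 7 genes 3, Myf5, Myod1 and Myog, were below WT in every KO library and 0 were above. Over all rows 19.9% did not overlap. Myf5, not tested, was at 0.44, 0.43 and 0.33 FPKM in WT, against 0.04, 0.17 and 0.13 FPKM for KO, on an estimated 1 to 13 reads. Pax7 and Pax3 were at 0 in KO replicate 1, but rest on few reads. Pax3 was also at 0 in WT replicate 2, and Pax7 was highest, at 0.25 FPKM, in KO replicate 3. The 10 skeletal muscle genes summed to 1547 to 2267 FPKM in WT and 401 to 2029 FPKM in KO, again lowest in KO replicate 1. All 10 were fitted lower, with a median log2 fold change of −0.67, and 0 of 10 were called in limma and 0 had an unadjusted p under 0.05. Macrophage genes, 9 of 9 fitted higher and 0 called (3 at an unadjusted p under 0.05), summed to 121 to 179 FPKM in WT and 165 to 229 FPKM in KO. The 12 preadipocyte and fibroblast genes summed to 1361 to 1752 FPKM in WT and 1446 to 2393 FPKM in KO, highest in KO replicate 2, the library in which Sfrp2 was also highest; 9 of the 12 were fitted higher, and Ly6a was called higher (log2 fold change 0.99, limma adjusted p 0.0332). The 7 erythroid genes summed to 3378, 5063 and 14389 FPKM in WT, with WT replicate 3 standing apart, and to 3070 to 3956 FPKM in KO. Schwann cell genes summed to 23.6 to 31.3 FPKM in WT and 22.6 to 26.2 FPKM in KO, and white adipocyte genes to 111 to 251 FPKM and 191 to 220 FPKM. The part of the brown adipocyte, smooth muscle and pericyte, myogenic, macrophage, fibroblast, endothelial, erythroid and epidermal lists in the values of Axin2, Lef1, Sfrp4, Ror2 and Tle3 was not tested. Without KO replicate 1 the log2 fold changes of Axin2 and Sfrp4 were −1.03 and −0.91, with limma adjusted p of 0.0969 and 0.0948. Without WT replicate 3 they were −1.09 and −1.14, with limma adjusted p of 0.107 and 0.101. Leaving out a library does not test the part of any cell type. The 7 epidermal genes summed to 2.53 to 3.41 FPKM in WT and 2.10 to 2.63 FPKM in KO. Krt5, Krt14, Krt15 and Krt1 were at 0 in every WT library and at most 0.27 FPKM in KO. The 2 tested genes of that list were lower in every KO library and did not pass: Trp63, at 0.56, 0.94 and 1.27 FPKM in WT, against 0.27, 0.20 and 0.52 FPKM for KO (unadjusted p 0.0187, limma adjusted p 0.171), and Krt10, at 1.93, 2.07 and 2.06 FPKM against 1.78, 1.88 and 1.42 FPKM (limma adjusted p 0.557). The 6 cartilage and bone genes summed to 0.76 to 1.37 FPKM over all 6 libraries.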

How the data were processed

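RNA of the whole interscapular brown fat depot was sequenced in 6 libraries, 3 WT and 3 KO. The authors deposited 1 table of FPKM per gene and library, per the file headers. The submitters' processing notes name HISAT2 2.0.4, Bowtie2 2.2.5, DESeq2 and the mm10 build, without their roles; the counting tool, annotation and use of strand are not given in the sources used here. From the deposited FPKM values, log2(FPKM + 1) was compared between KO and WT in limma 3.58.1 (R 4.3.3; linear model with an intensity trend) over 13331 genes whose mean reached 0.5 FPKM, with Benjamini-Hochberg adjustment at 0.05. Fold changes on this scale understate those of low genes. The fit was tested on simulated data. Depth was estimated from the steps of low FPKM values of genes of 500 to 1300 nt. At the depth that fitted these values best, 75.9% to 81.4% of them came out within 0.2 of a whole read. With gene lengths shuffled it was 38.7% to 44.3%. The shuffled lengths were scored at that same depth without a new fit, so part of the gap may come from the fitting. Reads are therefore estimates, and no count test was run.

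The members and gene lists were chosen with earlier results of these data known. Described by library were members past the threshold or with an unadjusted p under 0.05, the 2 highest of each role, and Axin2, Lef1, Ctnnb1 and Tcf7l2; from the other lists, genes past the threshold and up to 3 per list with the smallest unadjusted p under 0.05. The 15 alternatives changed the pseudocount, filter, scaling, variance model or replicate block, or left out a library. Same-numbered WT and KO libraries were not taken as pairs.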

Additional observations from a re-analysis of the deposited data

How the results depend on the processing

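Both member calls, Axin2 and Sfrp4, rested on adjusted p-values close to the threshold. Against 2 members and 295 genes called, the fit without a filter on low values called 0 members and 35 genes, a common FPKM sum called 1 member and 191 genes, and a filter at 5 FPKM called 0 members because 12 members, without Axin2 and Sfrp4, were left to test; it moved the members' median log2 fold change from −0.12 to −0.24. Leaving out 1 library gave 0 to 1 members and 31 genes (without WT replicate 3) to 370 genes (without WT replicate 1), 39 without WT replicate 2, and 121, 89 and 87 when KO replicates 1, 2 and 3 were dropped in turn; the members' median ran from −0.23 to −0.09. With the replicate number as a block, 1 member (Sfrp4) and 167 genes were called. Deviations of same-numbered libraries correlated at 0.068, 0.043 and 0.043, so the numbers were not taken as pairs. Under the block Axin2 had an adjusted p of 0.058 and Ror2 of 0.057 in limma, and Apcdd1 passed at 0.0484. The sign turned for Sfrp2, to −0.011 with quantile normalization, −0.012 and −0.061 when WT replicate 1 or 3 was left out and −0.37 when KO replicate 2 was, and for Wnt11, to −0.045 when WT replicate 2 was left out and −0.0026 when KO replicate 3 was; with single libraries left out, both reached 0.28 at the other end. For the other 22 genes that the naming rule chose and that were tested, the sign held in every alternative run. Among tested members outside the rule it turned in at least 1 alternative for Wnt2b, Lrp5, Fzd8, Dkk2 and Dkk3, as it did for Wls. Apart from the filter of 5 FPKM, the cause of these changes was not tested. Members below 0.5 FPKM, 20 of 44, rest on few reads.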
